A study of Mus musculus with 12 samples.

Results

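The subunits of GABA-A receptors and of glutamate receptors were described in mouse brain tumours. They were taken by gene symbol from a table of 24054 genes: the alpha, beta, gamma and delta subunits of GABA-A receptors (13 genes), the AMPA subunits (4), the kainate subunits (5), the NMDA subunits (7) and the metabotropic glutamate receptors (8), 37 genes in all. Of these, 34 reached 1 CPM (reads scaled to library size) in at least 3 of the 12 libraries and were tested among the 15232 genes that did so. The other 3, Gabra6, Grin3b and Grm6, were near 0.

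Mouse tumour cells, labelled ms7080 while the protocol text names BC cells, had been placed in the striatum of C57BL/6 females, and tissue was taken once symptoms appeared. The 4 groups of 3 tumours came from untreated young mice (2 months), untreated old mice (16 months), old mice receiving 300 mg per kg per day of NMN (nicotinamide mononucleotide, from which cells make NAD), and old mice joined by parabiosis, a surgical joining that gives both animals a common circulation. All groups carried the same injected line, young and old mice came from different sources, and how old the partners in parabiosis were is not stated in the labels. Each library held 18566096 to 26779406 reads, so that 3 reads correspond to 0.100 to 0.143 CPM.

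Among lists of cell type markers, genes of oligodendrocyte precursors summed to 2423 to 5552 CPM per library, genes of astrocytes to 2831 to 5995, and genes of dividing cells to 724 to 1921. The 14 neuron genes summed to 931 to 4944 CPM, and no marker of these 4 lists was at 0 in all libraries of a group. Expressed as a score, the mean log2 deviation of the 14 neuron genes from their mean over the 12 libraries, young replicates 1 and 2 were lowest (-1.65 and -1.93) and NMN replicate 1 and parabiosis replicate 3 highest (1.58 and 1.32). The other 8 libraries lay between -0.49 and 0.51. Young replicate 3 and old replicates 1 and 2, labelled female, had 5.33, 1.88 and 2.76 CPM of Xist, which is transcribed from the inactive X, against 164 to 1127 in the other 9 libraries.

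GABA-A receptors are pentameric chloride channels that carry most fast inhibition in the brain, commonly built from alpha, beta and gamma subunits. AMPA, kainate and NMDA receptors are tetrameric cation channels opened by glutamate, and the metabotropic receptors act through G proteins. In normal brain most of these genes are used by neurons, and a smaller number also by astrocytes and by oligodendrocyte precursors, which receive synapses from neurons.

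**Figure D1:**
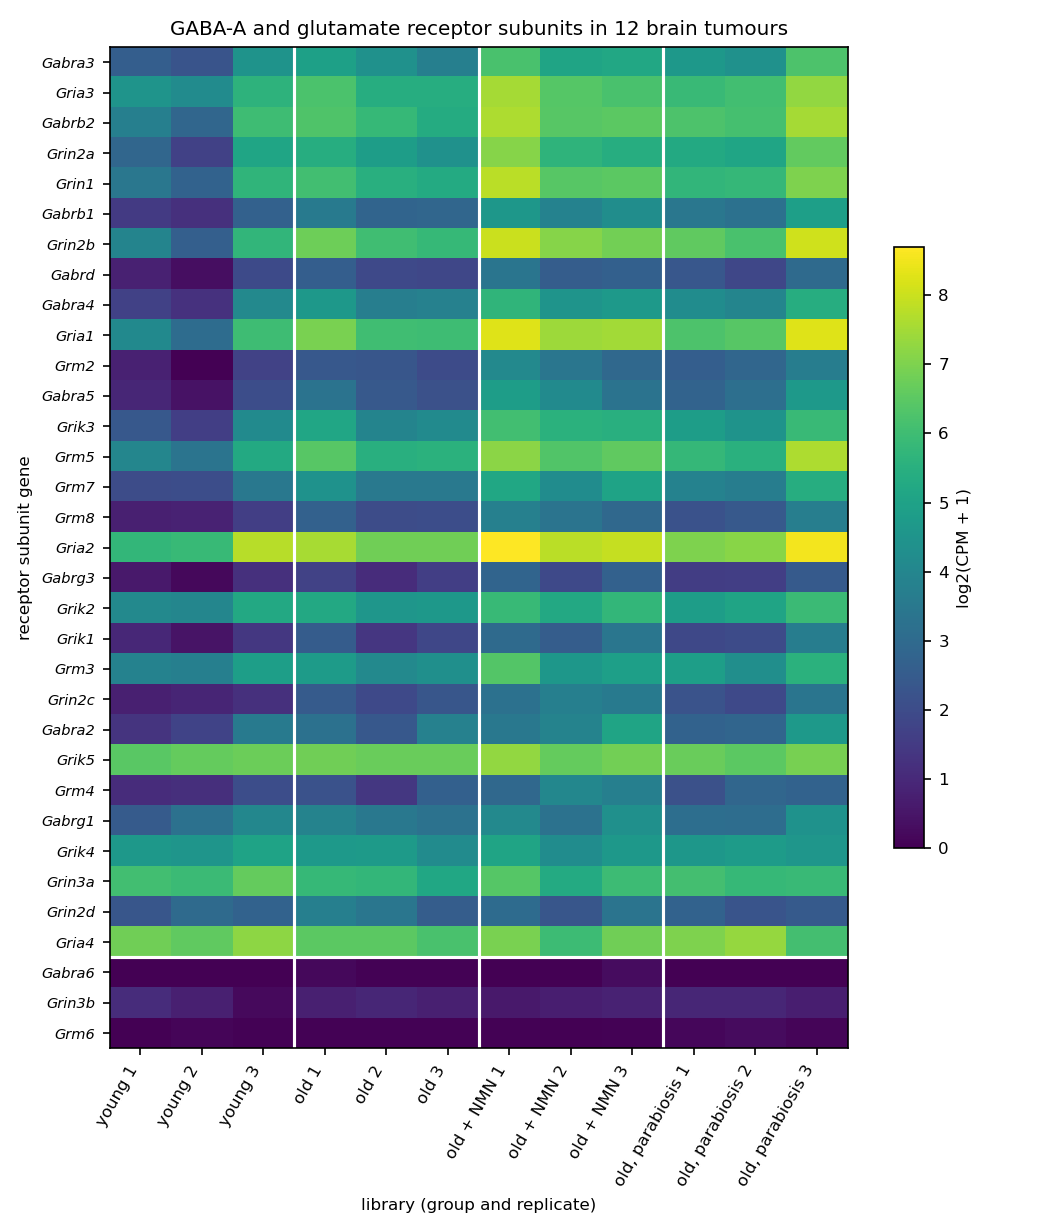
Level of 33 of the 37 subunit genes (rows, ordered by their correlation with the neuron genes) in each of the 12 libraries (columns, by group and replicate), as log2(CPM + 1) in colour. Young replicates 1 and 2 are darkest in most rows, while Grik5, Grik4, Grin3a and Gria4 keep nearly the same colour throughout and the bottom 3 genes are near 0.

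Most of the subunits varied widely between tumours, and a few hardly at all. Over the 33 tested subunits with reads in every library, the highest library exceeded the lowest by at least 10-fold in 24, by 82.2-fold in Gabra5 and by 61.9-fold in Grin2a. It did so by under 4-fold in 5, namely Grik5 (1.74-fold), Grik4 (1.90-fold), Gria4 (2.56-fold), Grin3a (2.84-fold) and Grin2d (3.32-fold). Grm2 had 0 reads in young replicate 2. The lowest value of 30 of the 34 subunits was in young replicate 1 or 2, and the highest of 28 was in NMN replicate 1 or parabiosis replicate 3.

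Levels between genes were compared per kilobase of annotated exon (GENCODE vM21, GRCm38). On this scale Grik5 was highest over the 12 libraries (28.6 CPM per kb), followed by Gria1 (21.1), Gabrb2 (19.4), Gria2 (17.9), Gria4 (16.5) and Grin1 (16.1). The order differed between groups: Grik5 and Gria1 had means of 26.1 and 4.98 CPM per kb in young and 32.3 and 37.8 in NMN tumours, and Gria4 was second in young ones (18.7). It also depends on how much exon is annotated, which reaches 24787 bases for Grin2b. The levels below are CPM, not divided by length.

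Promoter sequence was looked at because most subunits moved together while a few did not. RefSeq (GRCm38.p6) windows from 250 bases before to 50 after a transcript start were held for 24 of the 37 subunits, 31 windows in all. Letters of known neuronal and general promoter motifs were searched on both strands. The left part of RE1, the site of the neuronal repressor REST (TTCAGCACC), was found in Grm2 only, against 0.371% of 32851 promoters. The NRF1 motif was found in 2 of the 31 windows (Gabrb1 and Gria2), against 4.6% of all promoters. The GC box (GGGCGG) was in 14 windows of 13 subunits, against 35.7%, and TATAAA in 4 windows of 3 subunits, against 13.6%. No window held the RE1 core or the CRE (TGACGTCA). These are matches of letters, not measured sites.

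Upstream sequences of 3 subunits are given 5′ to 3′ up to the base before the start: Grm2 and Gabrb1, whose levels varied widely, and Gria4, whose level varied little. Capitals mark the left part of RE1 and the GC boxes in Grm2 (chr9:106656110-106656351, minus strand) and the NRF1 motif in Gabrb1 (chr5:71699782-71699931, plus strand, ahead of a start within the gene), which do not overlap one another. The Gria4 stretch (chr9:4796235-4796384, minus strand) held none of the 6 motifs and is in lower case.
Grm2: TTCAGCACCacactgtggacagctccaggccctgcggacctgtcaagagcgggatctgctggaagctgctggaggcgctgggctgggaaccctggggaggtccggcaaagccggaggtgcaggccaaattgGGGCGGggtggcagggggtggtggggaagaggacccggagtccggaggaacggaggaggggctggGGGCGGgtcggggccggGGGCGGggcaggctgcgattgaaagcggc
Gabrb1: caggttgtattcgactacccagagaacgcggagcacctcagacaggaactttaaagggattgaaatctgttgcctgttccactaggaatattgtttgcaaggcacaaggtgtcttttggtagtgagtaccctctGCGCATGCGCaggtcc
Gria4: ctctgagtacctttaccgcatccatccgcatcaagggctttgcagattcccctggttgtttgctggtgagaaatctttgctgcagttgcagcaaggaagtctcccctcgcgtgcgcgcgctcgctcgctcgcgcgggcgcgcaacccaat

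Most of the GABA-A subunits had their lowest values in young replicates 1 and 2. Gabrb2, a major beta subunit of adult brain, stood at 12.6, 6.33 and 62.2 CPM in the young libraries, 78.7, 55.2 and 39.6 in the old, 196, 86.4 and 89.3 in the NMN and 76.3, 69.7 and 185 in the parabiosis libraries. Its young replicate 3 lay within the range of the old libraries, and NMN replicate 1 and parabiosis replicate 3 were the highest. Gabra6, which marks cerebellar granule cells, had at most 0.209 CPM in any library.

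Further alpha, beta and gamma subunits and the delta subunit were lowest in the same young libraries. Gabra3 was at 4.99, 3.81 and 21.1 CPM in the young libraries, 29.4, 20.3 and 12.3 in the old, 72.7, 32.9 and 36.1 in the NMN and 23.9, 20.2 and 76.2 in the parabiosis libraries. Gabra4, often paired with the delta subunit outside synapses, was at 2.22, 1.38 and 16.1 CPM in the young libraries, 23.8, 12.0 and 13.1 in the old, 51.0, 21.7 and 24.7 in the NMN and 17.8, 14.5 and 42.0 in the parabiosis libraries. Both had young replicate 3 within the range of the old libraries. Gabra5, an extrasynaptic subunit best known from the hippocampus, was at 0.908, 0.333 and 3.20 CPM in the young libraries, 8.82, 4.41 and 3.50 in the old, 27.4, 17.0 and 8.84 in the NMN and 5.74, 8.14 and 25.2 in the parabiosis libraries, and here all old libraries exceeded all young ones. Gabrd, the delta subunit of receptors that respond to ambient GABA, was at 0.726, 0.238 and 2.90 CPM in the young libraries, 5.02, 2.80 and 2.63 in the old, 9.33, 4.98 and 5.38 in the NMN and 4.13, 2.57 and 6.99 in the parabiosis libraries. Gabrb1 was at 1.82, 1.29 and 5.54 CPM in the young libraries, 10.9, 6.01 and 6.28 in the old, 23.3, 13.5 and 18.0 in the NMN and 9.79, 8.38 and 28.9 in the parabiosis libraries. Gabrg3 was at 0.499, 0.143 and 1.32 CPM in the young libraries, 2.30, 1.16 and 2.07 in the old, 6.03, 2.80 and 5.51 in the NMN and 1.97, 2.04 and 4.47 in the parabiosis libraries. These 3 were also lowest in young replicates 1 and 2.

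Gabra2, an alpha subunit of forebrain synapses, was at 1.5, 2.38 and 10.7 CPM in the young libraries, 8.4, 4.22 and 13.1 in the old, 10.2, 13.8 and 33.1 in the NMN and 5.71, 6.21 and 25.1 in the parabiosis libraries. It too was lowest in young replicates 1 and 2, but replicate 3 was the highest library of each group. Gabrg1, a gamma subunit of more restricted use, was at 4.68, 8.52 and 15.3 CPM in the young libraries, 13.8, 10.2 and 8.62 in the old, 16.0, 8.79 and 19.7 in the NMN and 7.79, 7.64 and 20.4 in the parabiosis libraries, and the libraries of every pair of groups overlapped. Young replicate 1 was its lowest library, but young replicate 2 stood above parabiosis replicates 1 and 2. Gabrg1 (chr5:70751047-70842617) and Gabra2 (chr5:70957597-71095849) are neighbours of Gabra4 (chr5:71569749-71658308) and Gabrb1 (chr5:71658113-72149037) on chromosome 5. The starts of Gabra4 and Gabrb1 overlap on opposite strands, and the labels do not state the strand setting of the counting.

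Among the AMPA subunits, Gria4 stood apart from the other 3. Gria1, whose insertion at synapses accompanies potentiation, was at 16.3, 7.43 and 62.6 CPM in the young libraries, 124, 64.4 and 63.1 in the old, 306, 172 and 178 in the NMN and 75.3, 85.2 and 310.2 in the parabiosis libraries. Gria2, whose edited form keeps AMPA receptors nearly closed to calcium, was at 52.5, 56.5 and 217 CPM in the young libraries, 187, 110.2 and 113 in the old, 414, 224 and 242 in the NMN and 128, 142 and 370.5 in the parabiosis libraries. Gria3 was at 21.6, 17.4 and 47.8 CPM in the young libraries, 73.9, 42.2 and 42.2 in the old, 182, 83.0 and 73.2 in the NMN and 57.9, 66.1 and 157 in the parabiosis libraries. For these genes NMN replicate 1 and parabiosis replicate 3 were the highest libraries and young replicates 1 and 2 the lowest. Gria4 (chr9:4417896-4796234), a fast-gating subunit abundant in cerebellum and interneurons, was at 113, 93.6 and 147 CPM in the young libraries, 88.8, 89.2 and 71.7 in the old, 121, 61.7 and 111 in the NMN and 127, 158 and 68.2 in the parabiosis libraries. Its young libraries all exceeded its old ones, and parabiosis replicate 3 was the lowest of its group.

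The NMDA subunits split in the same manner. Grin1, required in every NMDA receptor, was at 10.0, 5.62 and 50.4 CPM in the young libraries, 65.5, 43.5 and 38.6 in the old, 222, 85.6 and 90.5 in the NMN and 52.4, 54.4 and 127 in the parabiosis libraries. Grin2a, which increases after birth, was at 6.27, 2.24 and 33.4 CPM in the young libraries, 41.3, 27.5 and 20.2 in the old, 138, 49.7 and 41.8 in the NMN and 37.9, 34 and 97.3 in the parabiosis libraries, and Grin2b, the main partner of Grin1 before birth, was at 14.3, 5.19 and 51.9 CPM in the young libraries, 110.0, 64.2 and 55.7 in the old, 254, 139 and 113 in the NMN and 94.1, 72.3 and 269 in the parabiosis libraries. In all 3 genes young replicates 1 and 2 were the lowest libraries. Young replicate 3 lay within the range of the old libraries for Grin1 and Grin2a and below it for Grin2b. Grin2c, used by cerebellar granule cells and by astrocytes, was at 0.681, 0.857 and 1.32 CPM in the young libraries, 4.6, 2.76 and 4.06 in the old, 8.46, 12.6 and 10.8 in the NMN and 3.66, 2.77 and 9.46 in the parabiosis libraries. Its young libraries were all below the old and its NMN libraries all above the old. Grin2d, an early-expressed subunit, was at 4.04, 6.95 and 5.71 CPM in the young libraries, 12.5, 9.71 and 4.85 in the old, 7.14, 4.05 and 9.13 in the NMN and 5.63, 3.77 and 4.52 in the parabiosis libraries, highest in old replicates 1 and 2. Grin3a, which lowers the calcium entry of the receptor, was at 66.0, 59.2 and 99.0 CPM in the young libraries, 55.4, 53.2 and 34.8 in the old, 84.4, 38.9 and 60.6 in the NMN and 67.2, 55.5 and 58.4 in the parabiosis libraries, and its young libraries exceeded its old ones. Grin3b stayed between 0.171 and 1.14 CPM.

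Of the kainate subunits, the low-affinity members Grik1 and Grik3 varied widely, the low-affinity Grik2 less (4.01-fold), and the high-affinity members little. Grik1 was at 0.953, 0.381 and 1.66 CPM in the young libraries, 4.74, 1.57 and 2.63 in the old, 6.98, 4.90 and 9.76 in the NMN and 2.74, 3.00 and 11.8 in the parabiosis libraries. Grik2 was at 16.0, 14.9 and 36.7 CPM in the young libraries, 36.9, 22.8 and 23.8 in the old, 56.5, 36.8 and 52.7 in the NMN and 27.5, 32.7 and 59.5 in the parabiosis libraries. Grik3 was at 4.31, 2.1 and 16.9 CPM in the young libraries, 34.7, 14.3 and 16.9 in the old, 65.8, 46.2 and 44.2 in the NMN and 27.5, 21.1 and 58.6 in the parabiosis libraries. All 3 form channels on their own and were lowest in young replicates 1 and 2. Grik5, which needs one of them as partner, was at 88.4, 99.9 and 107 CPM in the young libraries, 111, 104 and 104 in the old, 154, 98.7 and 113 in the NMN and 104, 90.3 and 121 in the parabiosis libraries, and Grik4, the other such subunit, was at 24.1, 22.4 and 31.8 CPM in the young libraries, 24.3, 25.7 and 17.3 in the old, 32.8, 17.8 and 23.8 in the NMN and 23.2, 26.3 and 22.8 in the parabiosis libraries. Neither separated any pair of groups.

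The metabotropic receptors followed the GABA-A subunits, Grm3 and Grm4 less closely. Grm5, coupled to Gq and abundant in striatum, was at 15.1, 9.24 and 38.3 CPM in the young libraries, 85.1, 43.7 and 46.0 in the old, 146, 79.0 and 95.3 in the NMN and 54.9, 45.0 and 197 in the parabiosis libraries. All its old libraries exceeded all young ones. Grm2, an inhibitory receptor of presynaptic terminals, was at 0.726, 0 and 2.26 CPM in the young libraries, 4.32, 4.03 and 2.97 in the old, 16.0, 9.65 and 6.72 in the NMN and 5.01, 6.37 and 11.8 in the parabiosis libraries. Grm3, its relative that astrocytes also use, was at 13.5, 12.5 and 28.3 CPM in the young libraries, 26.0, 16.2 and 19.2 in the old, 80.9, 23.2 and 29.1 in the NMN and 28.6, 18.9 and 46.2 in the parabiosis libraries, with NMN replicate 1 the highest. The 3 young libraries of Grm3 overlapped the old. Grm4, a presynaptic receptor, was at 1.14, 1.24 and 3.20 CPM in the young libraries, 3.61, 1.68 and 5.34 in the old, 6.60, 15.4 and 12.4 in the NMN and 3.43, 6.37 and 5.61 in the parabiosis libraries. Grm7 was at 3.04, 3.14 and 10.1 CPM in the young libraries, 20.5, 10.3 and 10.5 in the old, 35.6, 17.6 and 32.0 in the NMN and 13.3, 11.9 and 41.7 in the parabiosis libraries, and Grm8 was at 0.681, 0.762 and 2.05 CPM in the young libraries, 5.44, 3.10 and 3.20 in the old, 12.8, 9.18 and 6.59 in the NMN and 3.59, 4.34 and 12.1 in the parabiosis libraries. For Grm4 all NMN libraries lay above all libraries of the other 3 groups. Grm6, the receptor of retinal bipolar cells, had at most 0.20 CPM.

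**Figure D2:**
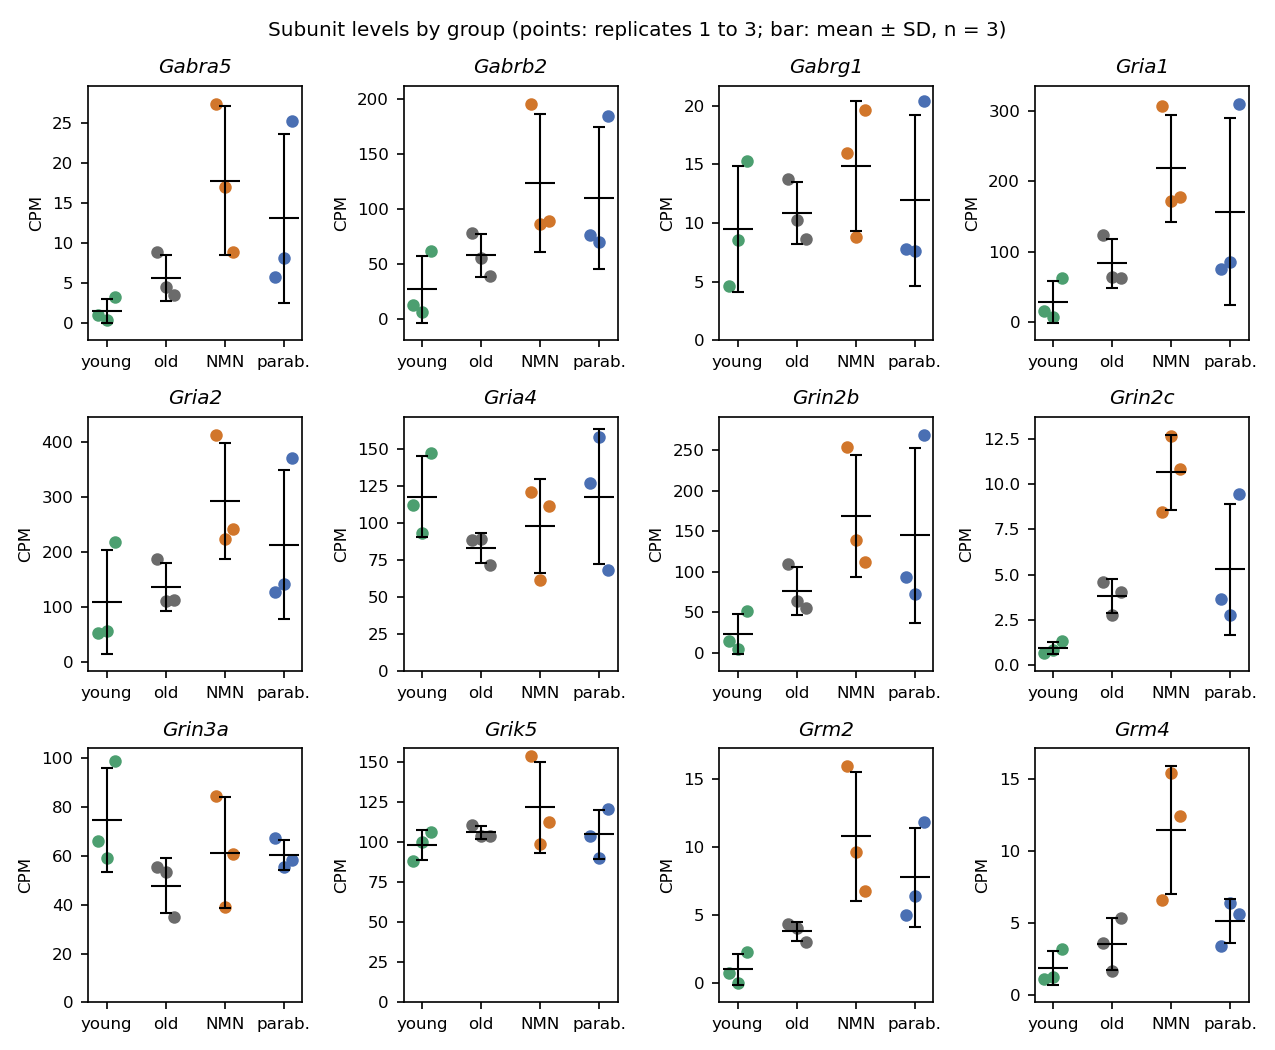
CPM of 12 subunits in the 4 groups; each point is a library (replicates 1 to 3 from left to right), and the bar gives the mean ± SD of 3 libraries. Gabra5, Gabrb2, Gria1 and Grin2b are lowest in the young group with 1 high library each in the NMN and parabiosis groups, whereas Gria4, Grin3a, Grik5 and Gabrg1 overlap between most groups.

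Tumours of old mice were set against tumours of young mice to ask how host age relates to the subunits. The means of 31 of the 34 subunits were higher in the old group (53% of all genes), with a median log2 difference of 1.27 against 0.02 over all 15232 genes. Grin2b differed most (76.6 ± 29.2 against 23.8 ± 24.8 CPM, SD, n = 3 each), while Grin3a (47.8 ± 11.3 against 74.8 ± 21.3), Gria4 and Grik4 had lower means. None passed the test at an adjusted p of 0.05 (limma, Benjamini-Hochberg over all genes; 0% of all genes passed). At an unadjusted p under 0.05 there were 19 subunits, all higher, beside 6.96% of all genes. On the recovered reads DESeq2 called 1 subunit (72 genes in all) and edgeR 0. The smallest p belonged to Grin2c (log2 difference 1.29 ± 0.34 (SE), adjusted p = 0.687), and a small p was also that of Grm2 (1.41 ± 0.44 (SE), adjusted p = 0.687), all from limma.

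By family, the median log2 difference between old and young tumours was 1.39 for the 12 GABA-A subunits, 1.47 for the 6 NMDA subunits, 1.31 for the 7 metabotropic receptors, 0.77 for the 4 AMPA subunits and 0.38 for the 5 kainate subunits. All libraries of the old group lay above all of the young in 10 subunits (6.95% of all genes), among them Gabra5, Gabrb1, Gria1, Grin2b, Grin2c, Grm2, Grm5, Grm7 and Grm8. They lay below in Gria4 and Grin3a (6.6% of all genes). Without young replicates 1 and 2 the median over the subunits was 0.13; the 1 young library left, replicate 3, is low in Xist. Leaving out 1 library at a time gave medians of 0.90 (without young replicate 2) to 1.67 (without young replicate 3). Without the 3 libraries low in Xist, which leaves 1 old library, it was 1.51. The 14 neuron genes were higher in the old group too, all 14 of them, with a median of 1.31 and 0 called. Other lists moved as well: 7 of 9 genes of myelinating oligodendrocytes (median 0.96) and 8 of 8 microglia genes (0.80) were higher. Of 11 astrocyte genes 6 were higher (0.30), and all 12 precursor genes were lower (-0.28). The part of these cell types in the subunits' difference was not tested. In bulk tissue, fewer cells of a type and less RNA per cell cannot be told apart.

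NMN and untreated old tumours were compared to ask whether the treatment altered the old pattern. Means were higher under NMN for 33 of 34 subunits (51.6% of all genes), Grin2d being the exception, with a median log2 difference of 1.08 against 0.01 over all genes. Grm4 (11.5 ± 4.48 against 3.55 ± 1.83 CPM, SD, n = 3 each) and Grin2c (10.6 ± 2.1 against 3.81 ± 0.943) had the smallest p. Every NMN library lay above every old library in 20 subunits, beside 12.6% of all genes, and below in 0, beside 6.92%. None of the 34 passed the adjusted test (0% of all genes), and 9 had an unadjusted p under 0.05 (10.3% of all genes). For Grm4 the log2 difference was 1.47 ± 0.40 (SE) with an adjusted p of 0.480, for Grin2c 1.28 ± 0.34 (SE) with 0.480, and for Gabrg3 1.00 ± 0.35 (SE) with 0.480 (limma).

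Families differed little in this contrast, with medians between 0.79 for the kainate and 1.14 for the NMDA subunits. The subunits without overlap included 8 of the GABA-A genes (among them Gabra3, Gabra5, Gabrb1, Gabrb2 and Gabrg3). Gria4 (0.18), Grik4 (0.12), Grik5 (0.17), Grin3a (0.31) and Gabrg1 (0.37) had the smallest positive log2 differences. On the recovered reads DESeq2 called 0 of the subunits here (46 genes in all) and 0 in parabiosis against old (44 genes in all). With edgeR 0 subunits were called in both. The neuron genes had a median of 1.11, 14 of 14 higher and 0 called, close to the median of the subunits. Higher too were 8 of 9 genes of myelinating oligodendrocytes (median 0.77) and 9 of 11 astrocyte genes (0.47). Lower were 10 of 12 precursor genes (-0.27), all 8 endothelial and mural genes (-0.34) and all 8 genes of dividing cells (-0.44). The median over the subunits was 0.80 without NMN replicate 1 and 1.28 without the libraries low in Xist.

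Parabiosis against untreated old tumours gave smaller differences. Means were higher for 32 of 34 subunits (54.1% of all genes), with a median log2 difference of 0.52 against 0.02 over all genes. All parabiosis libraries exceeded all old ones in 3 of 34 subunits, among them Grm2 and Grin3a, a share near the 6.99% of all genes. In 0 tested subunits they all lay below, beside 6.7%. For Grin3a the lowest parabiosis library (55.47 CPM) barely exceeded the highest old one (55.40 CPM). None passed the adjusted test (0% of all genes). Grin2d alone had an unadjusted p under 0.05 (5.61% of all genes), and it was lower, at 4.64 ± 0.935 against 9.03 ± 3.88 CPM (log2 difference -0.76 ± 0.34 (SE), adjusted p = 0.887, limma). Grm2 (0.81 ± 0.44 (SE)) followed by p, with an adjusted p of 0.904. The neuron genes had a median of 0.78, with 14 of 14 higher and 0 called. Of 9 genes of myelinating oligodendrocytes 8 were higher (median 0.39), of 11 astrocyte genes 6 (0.18) and of 12 precursor genes 7 (0.001). Parabiosis replicate 3 carried the largest part of the means: without it the median over the subunits was 0.15. Without the libraries low in Xist it was 0.77.

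Set against young tumours, NMN tumours differed by age and treatment at once, and this was the pair in which subunits passed the test. Means were higher for 31 of 34 subunits (48.3% of all genes), and 24 of 34 rose at an adjusted p under 0.05, beside 8.15% of all genes, while 0 fell. Called genes were 10 of 12 GABA-A subunits, 2 of 4 AMPA (Gria1 and Gria3), 2 of 5 kainate (Grik1 and Grik3), 4 of 6 NMDA (Grin1, Grin2a, Grin2b and Grin2c) and 6 of 7 metabotropic receptors. Gria1 rose most on the log2 scale (219 ± 75.9 against 28.8 ± 29.6 CPM, SD, n = 3 each; log2 difference 3.33 ± 0.71 (SE), adjusted p = 0.0280, limma). Grin2c had the smallest adjusted p, at 10.6 ± 2.1 against 0.953 ± 0.331 CPM (log2 difference 2.57 ± 0.34 (SE), adjusted p = 0.0206, limma), followed by Grm2 (2.65 ± 0.44 (SE), 0.0224) and Grm8 (2.29 ± 0.41 (SE), 0.0244).

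The other 20 called subunits had adjusted p-values of 0.0268 to 0.0494 from limma. Among them were log2 differences of 3.22 for Grin2b, 2.97 for Grik3, 2.96 for Gabra5, 2.96 for Grin1, 2.85 for Grin2a and 2.65 for Gabrb2. The smaller ones were 2.62 for Gabra4, 2.48 for Grm5, 2.44 for Gabrb1, 2.39 for Gabra3, 2.30 for Grm7, 2.13 for Grm4, 2.05 for Grik1, 1.94 for Gria3, 1.85 for Gabrd and 1.82 for Gabrg3. Those that did not pass were Gabra2, Grik2, Gria2 and Grm3, with log2 differences of 1.12 to 1.95, and Gabrg1, Grik5, Grin2d, Grik4, Gria4 and Grin3a, with -0.31 to 0.66. All NMN libraries lay above all young libraries in 26 subunits, beside 18.5% of all genes, and below in 0, beside 10.7%.

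These calls depended on single libraries. Without young replicate 1, young replicate 2, NMN replicate 1 or NMN replicate 3, 0 subunits passed, with 0, 0, 2 and 0 genes called in all. Without old replicate 2, which enters through the common estimate of the spread, 12 passed (478 genes in all). With only the NMN and young libraries in the fit 1 passed (29 genes in all), and 1 passed with edgeR on the recovered reads (93 genes in all). DESeq2 on those reads called 23 (2367 genes in all), a stricter filter of CPM at least 5 in 3 libraries gave 22 and quantile scaling 21. Leaving out the libraries low in Xist, which leaves 1 old library, gave a median over the subunits of 2.745. The direction of each of the 24 was the same in those of these fits that tested it. With young replicates 1 and 2 left out together, 0 passed and the median over the subunits was 1.17 in place of 2.35. With NMN replicate 1 and parabiosis replicate 3 left out, 15 passed (705 genes in all).

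Markers of several cell types moved with this contrast. The 14 neuron genes were all higher under NMN, 12 of them called, with a median log2 difference of 2.40 and a summed level of 931 to 1801 CPM in young and 2389 to 4944 in NMN libraries. Of 9 genes of myelinating oligodendrocytes 7 were higher and 6 rose (median 1.89), with 251 to 889 CPM in young and 940.2 to 1784 in NMN libraries. Of 11 astrocyte genes 8 were higher and 4 rose (median 0.78), at 3502 to 5995 and 3892 to 5472 CPM, and of 8 microglia genes 7 were higher and 4 rose (median 0.83), at 137 to 192 and 218 to 245 CPM. All 12 genes of oligodendrocyte precursors were lower and 0 were called (median -0.53), at 4683 to 5552 and 3051 to 4056 CPM. No gene of these lists was at 0 in all libraries of either group. The part of the other cell types in the subunits' difference was not tested.

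Parabiosis against young tumours gave higher means in 30 of 34 subunits (51.6% of all genes), a median log2 difference of 1.76, and 0 that passed (0% of all genes). An unadjusted p under 0.05 was reached by 25, all higher, beside 18.1% of all genes. The smallest p-values belonged to Grm2 (2.22 ± 0.44 (SE)) and Grin2c (1.55 ± 0.34 (SE)), each with an adjusted p of 0.136 (limma). Without young replicate 3, 22 subunits passed, with 701 genes called in all. Without the 3 libraries low in Xist, which leaves 1 old library, the median was 2.18. NMN against parabiosis tumours gave higher means in 32 of 34 subunits (54.1% of all genes), a median of 0.41 and 0 that passed (0% of all genes). That median ran from 0.16 without parabiosis replicate 2 to 0.90 without parabiosis replicate 3, and was 0.19 without NMN replicate 1. Grin2c (1.02 ± 0.34 (SE)) and Grm4 (0.99 ± 0.40 (SE)) reached an unadjusted limma p under 0.05 (9.65% of all genes), with adjusted p-values of 0.373 and 0.466. The libraries were apart in Grm4, higher under NMN (6.97% of all genes), and in 0 subunits lower (7.83%). The comparisons share libraries, so their values are not independent of each other. Over the 4 groups together the F test called 0 subunits, with 25 at an unadjusted p under 0.05 beside 18.3% of all genes.

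**Figure D3:**
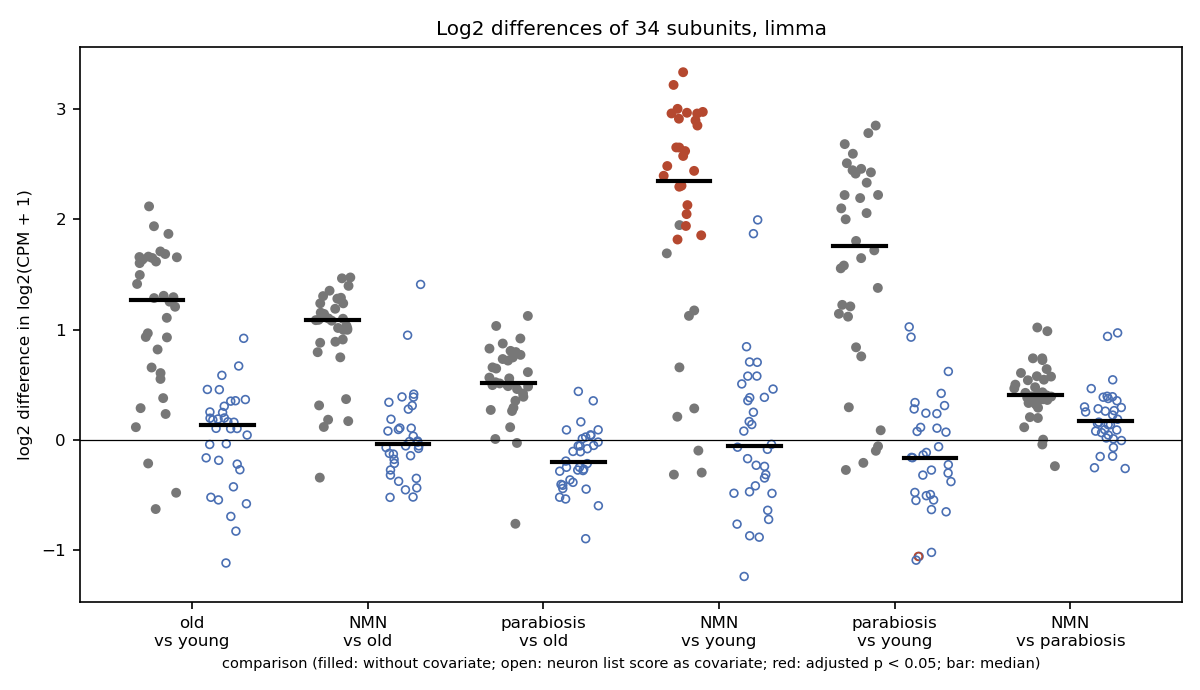
Log2 difference of each of the 34 tested subunits in the 6 comparisons (limma); filled points are without and open points with the neuron score as covariate, red marks an adjusted p under 0.05 and the bar is the median. Filled medians run from 0.41 to 2.35 and open medians from -0.20 to 0.17.

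The subunits were then related to the 14 neuron genes, a list that holds no receptor subunit. Across the 12 libraries 33 of 34 subunits correlated positively with the neuron score, 23 of them with a Pearson r of at least 0.9, and 30 had an adjusted p under 0.05 (permutation test, 34 relations). Among the closest were Gabra3 (r = 0.99, Spearman rho = 0.96) and Gria3 (0.99, 0.93), each with a permutation p of 1e-05 for r, the smallest that 100000 permutations can give, and an adjusted p of 1.7e-05. Without young replicates 1 and 2, the libraries farthest from the median score, r was 0.96 and 0.98, and 19 subunits had an r of at least 0.9. After the group means were taken out, 20 of 34 had an r of at least 0.9. With 3 libraries a group, this r can rest on single libraries. Young replicate 3 (score -0.30), NMN replicate 1 (1.58) and parabiosis replicate 3 (1.32) lay far from the others of their groups. The within-group r without them was not computed. The relation was not computed for all tested genes, so these counts do not show that it is particular to the subunits. Nor do they show that it is particular to neuron genes. The astrocyte score too was lowest in young replicates 1 and 2 (-0.73 and -0.83) and highest in NMN replicate 1 and parabiosis replicate 3 (0.71 and 0.73). For the score of myelinating oligodendrocytes these values were -1.02, -1.61, 1.04 and 0.65. The relation of the subunits to those 2 lists was not computed.

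At the other end were Gria4 (r = -0.07, rho = -0.13, permutation p = 0.83, adjusted p = 0.83), Grin2d (r = 0.09, rho = 0.14, permutation p = 0.78, adjusted p = 0.81) and Grin3a (r = 0.10, rho = 0.13, permutation p = 0.76, adjusted p = 0.81). Without the same 2 libraries their r was -0.08, -0.04 and 0.31, and within groups it was 0.13, 0.26 and 0.72. Grik5 did correlate (r = 0.71), but with a slope of 0.14 log2 units per unit of score, against 1.47 for Grin2b and 1.46 for Gria1. Grin2c (r = 0.84) and Grm4 (r = 0.70) followed the score less closely, and within groups their r was 0.47 and 0.0754.

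The subunits were also related to a list of 12 genes of oligodendrocyte precursors. Gria4 had an r of 0.81 (permutation p = 0.0014, adjusted p = 0.046, 34 relations) and a rho of 0.82 (permutation p = 0.0017, adjusted p = 0.057). Its r was 0.65 without parabiosis replicate 3 and NMN replicate 2, the libraries farthest from the median, and 0.89 within groups. The r of Grik4 was 0.71 and that of Grin3a 0.69, both with an adjusted permutation p of 0.12. Of the 34 subunits 4 correlated positively with this list over the 12 libraries, 9 without those 2 libraries and 21 within groups. This relation, too, was not computed for all tested genes.

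**Figure D4:**
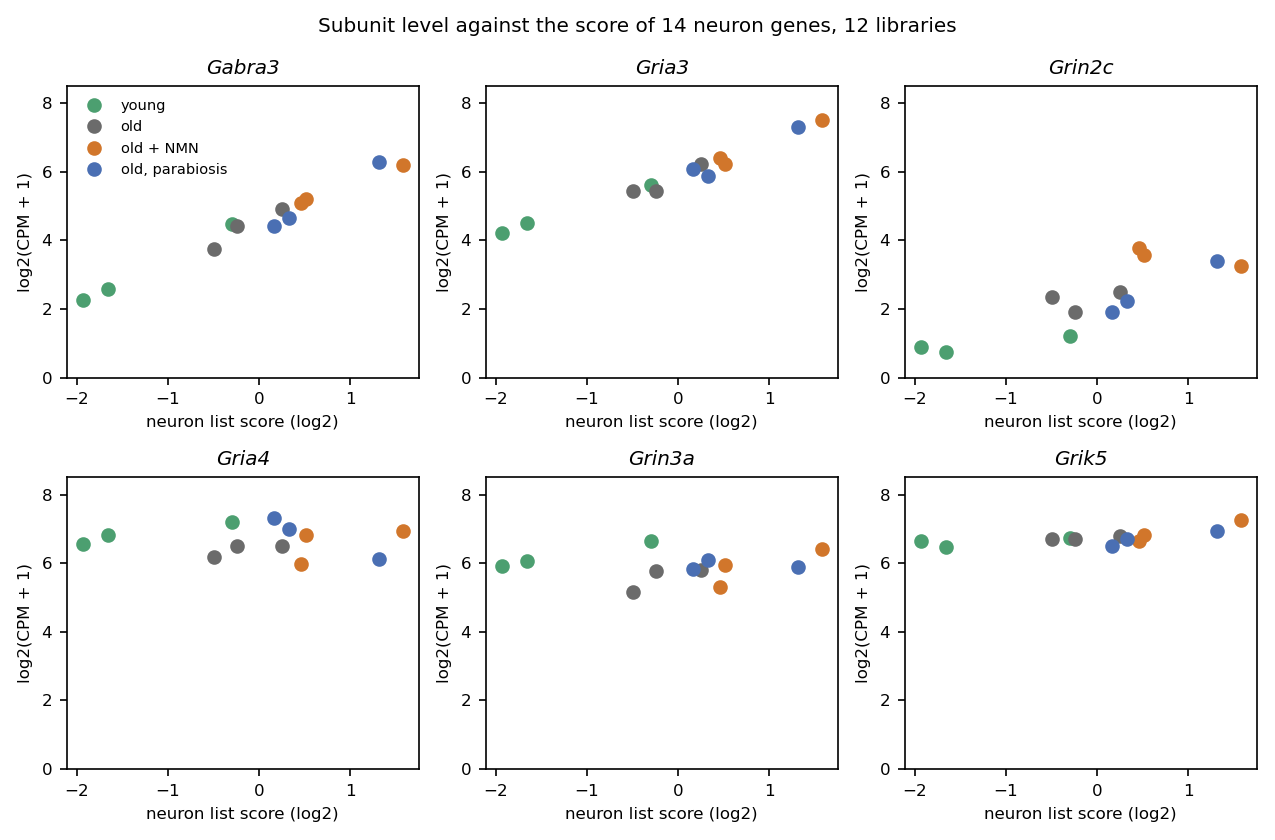
Level of 6 subunits, as log2(CPM + 1), against the score of the 14 neuron genes; each point is 1 of 12 libraries, coloured by group. Gabra3 climbs with the score in every group and Gria3 over the 12 libraries (r = 0.99 each), Grin2c less closely. Over all 12 libraries Gria4 and Grin3a have an r of -0.07 and 0.10 (0.13 and 0.72 within groups).

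With the neuron score as a covariate in limma, the median differences between groups ran from -0.20 to 0.17, with subunits on both sides. In old against young 21 were higher and 13 lower (-1.12 to 0.92), and in NMN against young 16 and 18 (-1.24 to 1.99). Parabiosis against old (9 higher, 25 lower) and NMN against parabiosis (28 higher, 6 lower, median 0.17) leaned to 1 side. In NMN against old 14 were higher and 20 lower, and in parabiosis against young 13 and 21. The median log2 difference became 0.13 for old against young (0 subunits passed, beside 2.03% of all genes), -0.04 for NMN against old, -0.20 for parabiosis against old, -0.05 for NMN against young and -0.16 for parabiosis against young. In NMN against young 0 subunits passed, beside 0.617% of all genes. The largest remaining differences there were 1.99 for Grm4 (adjusted p = 0.145), 1.87 for Grin2c (adjusted p = 0.0974) and -1.24 for Grin3a (adjusted p = 0.0974). In parabiosis against young 1 subunit passed, beside 7.58% of all genes: Gria2 was lower by 1.06 (log2 difference -1.06, adjusted p = 0.0453). A covariate that differs between the groups also takes out group differences that run with it, so these values do not divide the differences into a neuronal part and another part.

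The make-up of some sets of subunits also differed between tumours, and that of the AMPA subunits and of Grin2a to Grin2d is given by library. Among the kainate subunits Grik5 took 62.9 to 82.8% of the CPM per kb, the largest share in every library. Grm3 took 23.3 to 62.8% of the metabotropic receptors. Gria4 made up, as a percent of the AMPA subunits' CPM per kb, 60.2, 60.1 and 36.7 in the young, 21.1, 32.5 and 27.9 in the old, 13.2, 12.8 and 20.8 in the NMN and 36.0, 38.3 and 8.41 in the parabiosis libraries. Gria1 held 9.52, 5.19 and 17.0 in the young, 32.0, 25.6 and 26.8 in the old, 36.5, 39.1 and 36.2 in the NMN and 23.2, 22.5 and 41.7 in the parabiosis libraries. Young replicates 1 and 2 were thus mostly Gria4, while NMN replicates 1 and 2 and parabiosis replicate 3 had more of each of the other 3 subunits than of Gria4. Among Grin2a to Grin2d the percent taken by Grin2d was 36.7, 68.1 and 16.8 in the young, 20.1, 24.1 and 15.2 in the old, 5.20, 5.44 and 13.5 in the NMN and 11.5, 9.66 and 3.68 in the parabiosis libraries. It was the largest in young replicates 1 and 2.

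**Figure D5:**
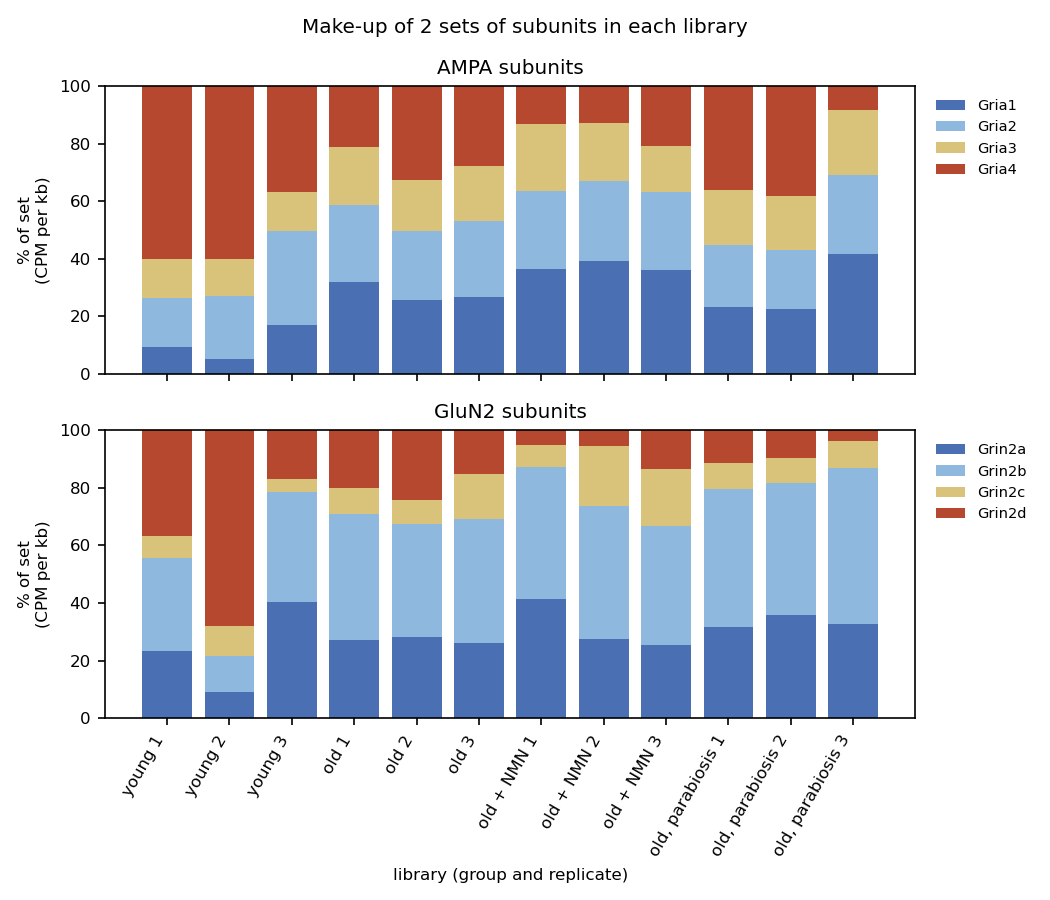
Share of each subunit in the summed CPM per kb of the AMPA subunits and of the NMDA subunits Grin2a to Grin2d, in percent, in each of the 12 libraries. Gria4 and Grin2d take their largest shares in young replicates 1 and 2.

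Subunit ratios, 4 of which are given, were tested between groups with exact permutation tests, two-sided, in which 3 against 3 libraries cannot give a p under 0.1. In old against young the log2 ratio of Gria1 to Gria2 differed by 1.40, of Grin2b to Grin2a by 0.35, of Grin3a to Grin1 by -2.40 and of Grm3 to Grm5 by -1.42, each with the groups apart (exact p = 0.1, adjusted p = 0.225 over 18 tests). The Grin2b to Grin2a difference was 0.161 without young replicate 3 and 0.302 to 0.449 without any 1 of the other 5 libraries. In NMN against old, Gria1 to Gria2 (0.32) and Grin3a to Grin1 (-1.0) reached the same smallest exact p of 0.1.

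Genes that work beside the receptors had positive medians as well. Auxiliary subunits and secreted partners (22 genes, such as the AMPA receptor partner Cacng2) had median log2 differences of 0.47, 0.74 and 0.56 in old against young, NMN against old and parabiosis against old. The 25 postsynaptic scaffold and anchoring genes had 0.42, 0.55 and 0.28, and the 19 genes of postsynaptic signalling had 0.52, 0.67 and 0.39. Of the 14 other receptor genes (glycine, GABA-B, delta, rho and further GABA-A subunits) 9 were tested, with medians of 0.16, 0.87 and 0.64. None of these genes passed in the 3 comparisons (0% of all genes in each). In NMN against young 6 of 22, 11 of 25, 7 of 19 and 0 of 9 rose, in the order given, beside 8.15% of all genes.

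Nptx2, a secreted pentraxin that clusters AMPA receptors and is induced by activity, had a lower mean in old than in young tumours, unlike most subunits. Like most subunits, it had higher means under NMN and parabiosis than in untreated old tumours. It was at 5.49 ± 3.87 CPM in young, 1.04 ± 0.639 in old, 5.10 ± 1.33 in NMN and 4.91 ± 1.94 in parabiosis tumours (SD, n = 3 each). The log2 differences were -1.56 ± 0.40 (SE) for old against young, 1.61 ± 0.40 (SE) for NMN against old and 1.54 ± 0.40 (SE) for parabiosis against old, with adjusted p-values of 0.687, 0.480 and 0.837 (limma). Arc, which removes AMPA receptors from synapses, was at 4.28 ± 1.69 CPM in young, 4.42 ± 1.5 in old, 13.9 ± 9.63 in NMN and 19.7 ± 16.9 in parabiosis tumours, and did not pass in any comparison. Plcb4, a phospholipase C, had little spread, at 25.4 ± 1.007 CPM in old and 42.7 ± 1.78 in NMN tumours (log2 difference 0.73 ± 0.14 (SE), adjusted p = 0.480, limma), and rose between young and NMN tumours (0.79 ± 0.14 (SE), adjusted p = 0.0266).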

How the data were processed

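RNA-seq of 12 mouse brain tumours (12 mice, 3 per group) was used. Libraries were made from total RNA with a stranded, rRNA-depleting kit and sequenced as paired ends, per the labels' protocols. The submitters' processing notes name FastQC, Bowtie2 2.1.0, RSEM 1.2.15, edgeR and the build mm10/GRCm38; none of them states the annotation release. The deposited values are CPM (read counts scaled to library size) that the authors scaled by TMM. They were whole multiples of 1 read in 100% of values (tolerance 0.01), so the reads behind them could be recovered.

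Genes with at least 1 CPM in at least 3 libraries (15232) were tested with limma 3.58.1 (R 4.3.3) on log2(CPM + 1), with a variance trend, all 12 libraries and 1 mean per group. P-values are two-sided, adjusted by Benjamini-Hochberg over those genes, and called under 0.05. Log2 differences are on the log2(CPM + 1) scale, which understates changes of low genes. Alternatives were edgeR 4.0.16 and DESeq2 1.42.0 on the recovered reads, other filters and scalings, a replicate block, covariates and left-out libraries. The fits were tested on simulated data. Within-group replicates differed by more than sampling noise (chi-square per degree of freedom 5.41 to 141).

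The members and gene lists were chosen with earlier results of these data known. Values in every library are given for members that are the highest of their family, have the 3 smallest p in a comparison, passed a test, lie at either end of the relation with the neuron genes, or enter a ratio. Other lists are given by counts and medians, with up to 3 genes of smallest p each. Rows whose symbol a spreadsheet had turned into a date (27) stayed in the fits without a gene name. Some members that this rule takes in are not reported here by name; they stayed in the fits, the counts and the medians.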

Additional observations from a re-analysis of the deposited data

How the results depend on the processing

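Beside the settings already given, NMN against young called 742 genes and 15 subunits without a filter, 29 and 1 with only those 2 groups, 93 and 1 with edgeR, and 94 and 0 with the neuron covariate. DESeq2 called 72, 46, 44, 2367, 977 and 232 genes in old against young, NMN against old, parabiosis against old, NMN against young, parabiosis against young and NMN against parabiosis, and 1614 over the 4 groups; subunits called were 1 in old against young, 23 in NMN against young, 17 in parabiosis against young and 17 over the 4 groups. The 4-group test called 3 genes without a filter and 3 with the neuron covariate. That covariate gave 309 genes in old against young and 1155 genes with 1 subunit in parabiosis against young, and medians over the subunits of 0.13, -0.038, -0.20, -0.054 and -0.16. It reversed, among others, Gabra3 (-0.48), Gabra4 (-0.42), Gabrb2 (-0.47), Gabrd (-0.041), Gria3 (-0.23), Grin1 (-0.086), Grin2a (-0.64) and Grm5 (-0.067) in NMN against young. The cause was not tested.

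Chosen after seeing the data: without young replicates 1 and 2 the medians against young were 0.13 (old), 1.17 (NMN) and 0.66 (parabiosis), with 0 genes and 0 subunits in NMN against young. Without NMN replicate 1 and parabiosis replicate 3, that pair gave 705 genes and 15 subunits. Without the libraries low in Xist, parabiosis against old gave 2 genes, parabiosis against young 327 genes and 13 subunits, NMN against parabiosis 2 genes and the 4-group test 11 genes.

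Leaving out 1 library at a time gave 0 to 2129 genes and 0 to 27 subunits in NMN against young, 0 to 701 and 0 to 22 in parabiosis against young, 0 to 689 and 0 to 22 over the 4 groups, 0 to 2 genes in old against young, and 0 to 1 genes in parabiosis against old and in NMN against parabiosis. The upper ends came without young replicate 3, except in the last 2 comparisons. There they came without NMN replicate 1 (parabiosis against old) and without old replicate 1 or 3 (NMN against parabiosis). Without old replicate 2, NMN against young gave 478 genes. Log2 ratios that changed sign ranged from -0.2144 to 0.08973 (Grin2b to Grin2a) and -0.2713 to 0.1876 (Grm3 to Grm5) in NMN against old, and from -0.1657 to 0.02282 (Grin2b to Grin2a), -0.0172 to 0.2368 (Gria1 to Gria2), -0.5134 to 0.2265 (Grin3a to Grin1) and -0.2044 to 0.3723 (Grm3 to Grm5) in parabiosis against old.

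With a replicate block NMN against young gave 1376 genes and 25 subunits, and no count of calls moved by over 1.5 times. Whether the numbers pair the samples was not settled. Same-numbered libraries deviated together (r over 0.1) in 10 of 18 pairs. In 9 of the 12 libraries the mean r was higher to libraries of the same number than to others. Quantile scaling moved the median of all genes by -0.14 in NMN against young.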
